A study of Mus musculus with 6 samples.

Results

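The 9 genes for proteins of the mature B cell surface that were followed in whole mouse blood were Ms4a1, Fcmr, Fcer2a, Cr2, Cd22, Cd72, Siglecg, Tnfrsf13c and Ltb. Every array probe whose accession belongs to 1 of these genes was taken, which gave 11 probes of the 41174 on the array and 9 genes of the 16535 that could be named. Cr2 and Cd22 had 2 probes each, numbered by signal with the brighter as probe 1, and the other genes had 1. Male C57BL/6J mice, an inbred strain, were used at 9 weeks of age, and blood was drawn from the heart (right ventricle). One group was fed 50% less chow (food restriction, FR) for 2 weeks, and the control group had a normal diet, with 8 animals in each. The animals carried no transgene or mutation that the labels name. RNA was pooled within each diet, so no value belongs to a single mouse: pool 2 combined animals 1 to 4 of a diet, pool 3 combined animals 5 to 8, and pool 1 combined all 8. The FR and control RNA of a pool shared an array, and the dyes Cy5 and Cy3 were swapped on a second array, for 6 arrays. The tests used pools 2 and 3, which have different animals, as 2 replicates (n = 2), and pool 1, a repeat of those same animals on a separate slide, is given beside them. Each p-value therefore rests on 2 pools per diet.

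These proteins sit on B cells that have left the bone marrow and recirculate between blood, spleen and lymph nodes. Some take up or sense immunoglobulin and complement (Fcmr, Fcer2a, Cr2), some restrain signalling of the B cell receptor through inhibitory motifs in their cytoplasmic tails (Cd22, Cd72, Siglecg), and Tnfrsf13c receives the survival signal of the cytokine BAFF. Most of them are used to tell mature B cells from their precursors, and Ltb is also made by T cells and innate lymphoid cells.

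The members differed widely in their response, with Fcmr 13.7-fold and Ltb 6.44-fold lower in FR blood, Ms4a1 11.2-fold lower with its FR signal near background, and no called difference for Siglecg. Of the 10 member probes that passed the filter on dim signals, 8 fell and none rose (none also at an unadjusted p under 0.05), where 25.2% of all 13270 tested probes were called lower and 3.94% higher (limma on the log2 ratio of FR over control, Benjamini-Hochberg adjusted p under 0.05). Counted by gene, with the brightest tested probe of each, 7 of 9 fell, against 28.1% of the 7913 named genes called lower and 3.25% higher. The median log2 ratio was -1.28 over the 10 member probes and -0.01 over all tested probes. The filter asked that at least 1 diet be well above background on each of the 4 arrays of pools 2 and 3. The control side met this for all 10 probes. The FR side met it for 4 (Fcmr, Cr2 probe 1, Siglecg and Ltb), against 60.5% of all tested probes. The other member probes entered through control alone, and all of them were called lower. Entry by that route favours probes that are lower in FR, so the count of 8 leans towards falls. With 2 pools the fit gave probes of like signal a common variance, so its p-values overstate the certainty for a single probe. With the smaller prior degrees of freedom that 3 pools gave, 7 member probes were called lower, where 16.0% of all tested probes were, and that p is given second below. With the stricter demand that both diets be above background on all 4 arrays, 4 member probes remained and 2 of them, Fcmr and Ltb, were called lower, where 19.5% of the 7880 probes that remained were. In whole blood, fewer B cells and less of a transcript per B cell cannot be told apart, and a ratio on these arrays is a share of the RNA and not an amount per volume of blood.

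**Figure D1:**
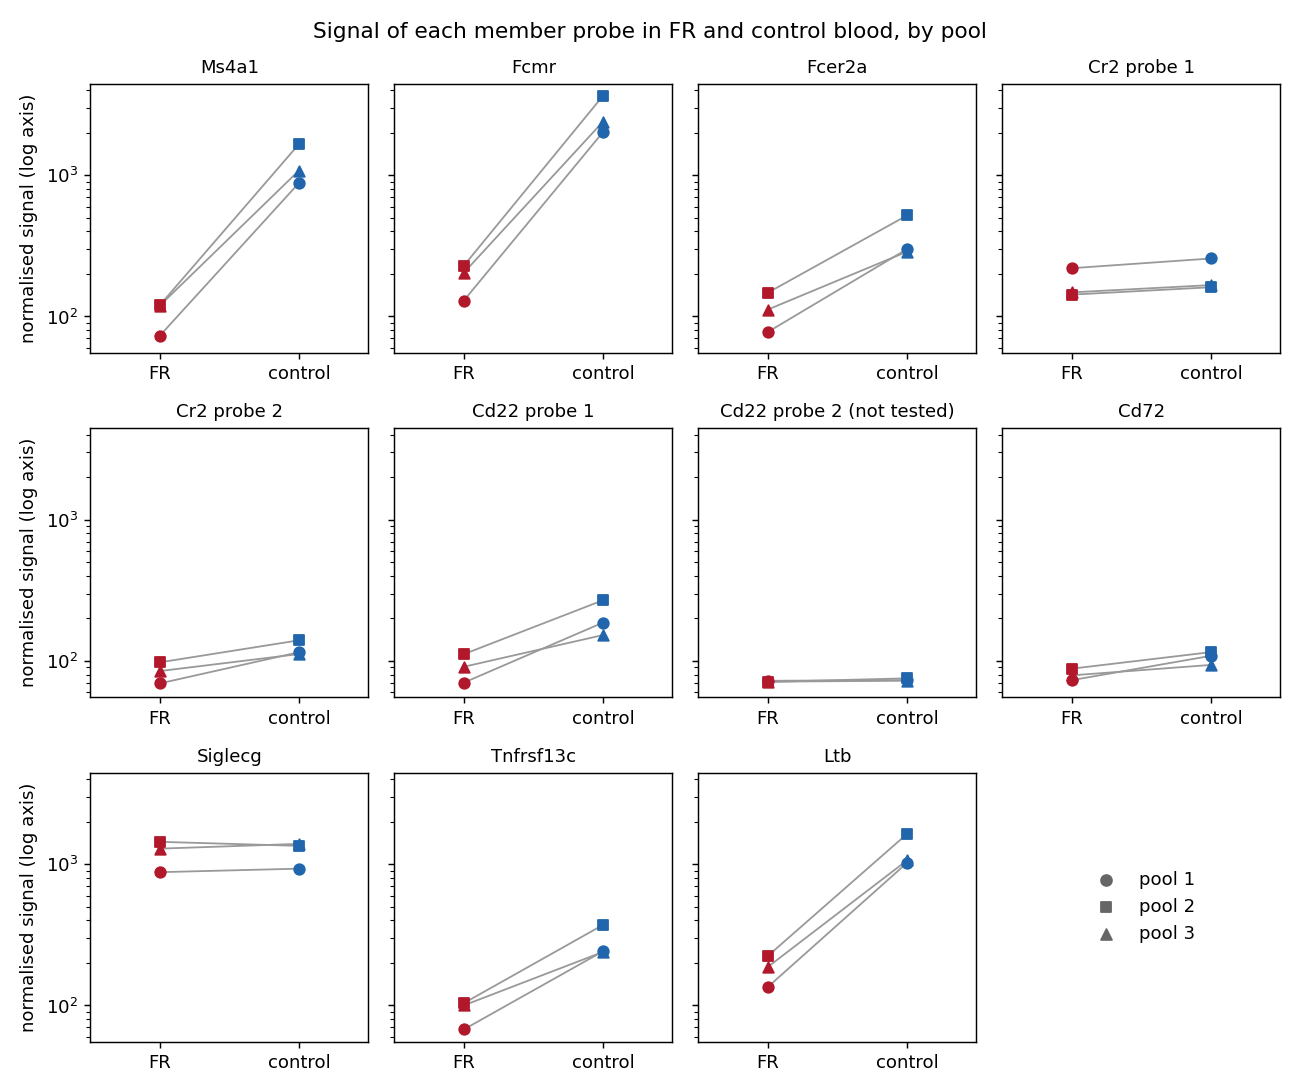
Normalised signal of the 11 member probes (log axis) in FR and control blood, with a line joining the 2 diets of each pool. The FR signals lay below all control signals in 8 of the 10 tested probes, as they did in 27.2% of all tested probes, and those of Cr2 probe 1 and Siglecg overlapped.

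Promoters are shown for 3 members that fell, Fcmr, Ltb and Tnfrsf13c, beside that of Siglecg, which was not called. Each runs 5′ to 3′ on the gene's strand over 300 bases, with 250 before and 50 after the start of the transcript (RefSeq, assembly GRCm38.p6), and capitals mark a motif CAGGTG on either strand. The windows are chr1:130865527-130865826 (plus strand) for Fcmr, chr17:35194257-35194556 (plus strand) for Ltb, chr15:82224331-82224630 (minus strand) for Tnfrsf13c and chr7:43407989-43408288 (plus strand) for the first of 2 Siglecg starts.
Fcmr: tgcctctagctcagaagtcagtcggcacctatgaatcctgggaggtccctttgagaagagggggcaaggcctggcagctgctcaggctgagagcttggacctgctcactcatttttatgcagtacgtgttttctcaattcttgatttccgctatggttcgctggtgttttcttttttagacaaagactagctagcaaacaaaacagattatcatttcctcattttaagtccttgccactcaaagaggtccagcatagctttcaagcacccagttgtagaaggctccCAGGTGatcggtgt
Ltb: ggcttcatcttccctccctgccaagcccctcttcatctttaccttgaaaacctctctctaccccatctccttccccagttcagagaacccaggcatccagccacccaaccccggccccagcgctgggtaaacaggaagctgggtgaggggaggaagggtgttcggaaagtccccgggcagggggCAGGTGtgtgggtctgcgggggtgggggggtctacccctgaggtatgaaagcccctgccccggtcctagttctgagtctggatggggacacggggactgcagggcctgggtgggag
Tnfrsf13c: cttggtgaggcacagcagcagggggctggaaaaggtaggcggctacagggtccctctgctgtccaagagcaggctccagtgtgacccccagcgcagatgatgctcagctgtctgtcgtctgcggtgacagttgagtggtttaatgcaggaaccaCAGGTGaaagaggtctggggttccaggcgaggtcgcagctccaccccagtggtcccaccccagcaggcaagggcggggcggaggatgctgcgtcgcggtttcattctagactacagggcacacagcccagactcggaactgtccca
Siglecg: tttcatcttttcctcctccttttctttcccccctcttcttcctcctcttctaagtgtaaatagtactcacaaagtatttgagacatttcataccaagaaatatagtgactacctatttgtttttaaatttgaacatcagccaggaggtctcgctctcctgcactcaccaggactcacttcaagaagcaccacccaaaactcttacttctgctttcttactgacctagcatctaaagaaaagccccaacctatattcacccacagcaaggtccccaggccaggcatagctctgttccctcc
The motif CAGGTG, an E-box of the kind that E proteins bind, begins at position 287 of the Fcmr window, 185 of the Ltb window and 155 of the Tnfrsf13c window, and the Siglecg window holds none. The window of Cd72, which fell, held none either. Over both strands CAGGTG was in 6 of the 11 promoters of the 8 members with a sequence (1 each of Fcmr, Cr2, Cd22, Fcer2a, Tnfrsf13c and Ltb), and in 20.2% of all 32851 promoters searched. Promoters on 1 chromosome were left out of the search. The octamer ATGCAAAT was in none of the 11 and in 1.74% of all promoters. The ETS motif GAGGAAGT was in that of Cd72 and in 3.20% of all, and the EBF-like motif CCCNNGGG in that of Cd22 and in 13.7% of all. A match of letters is a description of the window and not a measured binding site.

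Ms4a1 encodes CD20, a membrane-spanning protein of B cells that regulates calcium entry and is the target of B cell depleting antibodies. Its normalised signal, a brightness in arbitrary units that includes an added offset of 50, was 73.1, 120 and 119 in FR blood of pools 1, 2 and 3, against 882, 1662 and 1080 in control blood. The highest FR pool thus lay well under the lowest control pool. The log2 ratio was -3.59 in pool 1 and -3.48 ± 0.43 (SD, n = 2) over pools 2 and 3, 11.2-fold lower with the offset (limma adjusted p = 9.24e-113, and 0.00139 with the prior of 3 pools). FR was well above background on 2 of the 4 arrays of pools 2 and 3, so the FR level was measured on those arrays only, and the fold depends on how background is treated (a log2 ratio of -5.45 with Agilent's processed signals).

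Fcmr, the receptor for the Fc part of IgM, had the lowest ratio of the members with the offset, and Ms4a1 had the lowest with processed signals. FR blood gave 130, 229 and 204 signal units in pools 1, 2 and 3, and control blood gave 2019, 3651 and 2395. The groups did not come near each other. The ratio was -3.96 on the log2 scale in pool 1 and -3.77 ± 0.31 (SD, n = 2) over pools 2 and 3, a 13.7-fold fall (limma adjusted p = 4.04e-140, and 0.000689 with the prior of 3 pools). Ordered from the lowest ratio, Fcmr stood at place 2 and Ms4a1 at place 4 of the 7913 named genes. FR was above background on all 4 arrays for Fcmr, so both of its sides were measured.

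Fcer2a encodes CD23, the low-affinity receptor for IgE, which follicular B cells carry. Its signal was 77.7, 147 and 112 in FR blood and 299.9, 519 and 288 in control blood of pools 1, 2 and 3, with no overlap. On the log2 scale the ratio was -1.59 ± 0.32 (SD, n = 2), a 3.01-fold fall (limma adjusted p = 1.27e-22, and 0.00335 with the prior of 3 pools), and pool 1 gave -1.95. FR was above background on 3 of 4 arrays.

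Cr2 gives rise in mice to both complement receptor 2 (CD21) and, by splicing, complement receptor 1 (CD35), which bind C3 fragments on antigen. Its 2 probes gave different calls. Probe 1, above background in both diets on all 4 arrays, had signals of 219.8, 143 and 148 in FR blood and 257, 161 and 167 in control blood. FR was slightly lower within each pool, but the ranges of the groups overlapped. Its log2 ratio of -0.17 ± 0.00 (SD, n = 2) did not pass (limma adjusted p = 0.475, 95% interval -0.48 to 0.13), but with median centring in place of loess it was called lower at -0.39 (adjusted p = 0.0240). Probe 2 read 69.4, 97.8 and 84.9 in FR blood and 115, 140.1 and 112 in control blood, with no overlap, and its log2 ratio was -0.46 ± 0.08 (limma adjusted p = 0.000592, and 0.0357 with the prior of 3 pools). On none of the 4 arrays was FR well above background there, so the size of the fall is uncertain. The bound set from the background floor was 1.37-fold, the fitted fold itself, so it adds no lower limit. The 95% interval of the log2 ratio was -0.69 to -0.23. Over the alternatives the log2 ratio lay between -1.94 and -0.37. When the pairing on the array was ignored (no replicate block), the adjusted p was 0.0890. Which part of the transcript each probe reads was not analysed here.

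Cd22 encodes a lectin that binds sialic acid and dampens signalling of the B cell receptor. Probe 1 gave 70.3, 112 and 91.0 in FR blood, against 187, 269 and 153 in control blood, and the groups did not overlap. Its log2 ratio was -1.01 ± 0.37 (SD, n = 2), 2.01-fold lower with the offset (limma adjusted p = 2.26e-11, and 0.0106 with the prior of 3 pools), with -1.41 in pool 1. FR was above background on 2 of 4 arrays, and the fold depends on the background treatment (-2.99 with processed signals). Probe 2 read 72.4, 71.1 and 71.4 in FR blood and 73.1, 75.3 and 72.5 in control blood. It was above background on none of the 4 arrays of pools 2 and 3 in either diet, so it was not tested and carries no fold.

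Cd72, a C-type lectin with an inhibitory motif whose ligand is the semaphorin Sema4d, had a fall of uncertain size that only some settings called. Its signals were 73.1, 88.2 and 79.1 in FR blood and 109, 116 and 93.8 in control blood. The FR pools were lower without overlap, though the highest FR and the lowest control pool were close. The log2 ratio was -0.32 ± 0.10 (SD, n = 2; limma adjusted p = 0.0177), but with the prior of 3 pools the adjusted p was 0.0955, and with no replicate block it was 0.189. On none of the 4 arrays of pools 2 and 3 was FR well above background. Setting dim FR signals to at least the lowest signal well above background gave a fold of 1.21, which is not a lower limit. The 95% interval of the log2 ratio was -0.54 to -0.10, and over the alternatives the ratio lay between -1.998 and -0.22.

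Siglecg, a sialic acid-binding inhibitory receptor of B cells, had the ratio nearest to 0. It read 879, 1442 and 1290.4 signal units in FR blood and 931, 1350.1 and 1395 in control blood. The groups overlapped, and pool 2 was higher in FR while pools 1 and 3 were lower. The log2 ratio was -0.01 ± 0.15 (SD, n = 2; limma adjusted p = 0.974), with a 95% interval of -0.29 to 0.28. The probe was above background in both diets on all 4 arrays.

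Tnfrsf13c encodes the BAFF receptor, which mature B cells need to survive. Its signal was 67.7, 104 and 100.2 in FR blood, against 242, 372 and 239.5 in control blood of pools 1, 2 and 3. No FR pool reached a control pool. FR over control gave a log2 ratio of -1.84 in pool 1 and -1.55 ± 0.41 (SD, n = 2) over pools 2 and 3, 2.93-fold lower with the offset (limma adjusted p = 6.6e-23, and 0.00409 with the prior of 3 pools). FR was above background on 1 of the 4 arrays, and the fold depends on the background treatment (-3.87 with processed signals).

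Ltb, lymphotoxin beta, anchors lymphotoxin alpha in the membrane as a ligand of the lymphotoxin beta receptor, which organises lymphoid tissue. FR blood gave 135, 224 and 187 signal units and control blood 1023, 1639 and 1065 in pools 1, 2 and 3. The lowest control pool was several times the highest FR pool. On the log2 scale the ratio was -2.92 in pool 1 and -2.69 ± 0.26 (SD, n = 2) over pools 2 and 3, a 6.44-fold fall (limma adjusted p = 4.52e-70, and 0.00149 with the prior of 3 pools). FR was above background on all 4 arrays. Ltb stood at place 13 from the lowest ratio, Fcer2a at 140, Tnfrsf13c at 149 and Cd22 at 536 among the 7913 named genes, with Cd72, Cr2 and Siglecg at 2276, 3059 and 4204. These places rest on ratios with the offset, and the order of the members depends on it. With processed signals Tnfrsf13c (-3.87) was lower than Ltb (-3.52), and Cd22 probe 1 (-2.99) lower than Fcer2a (-2.75).

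**Figure D2:**
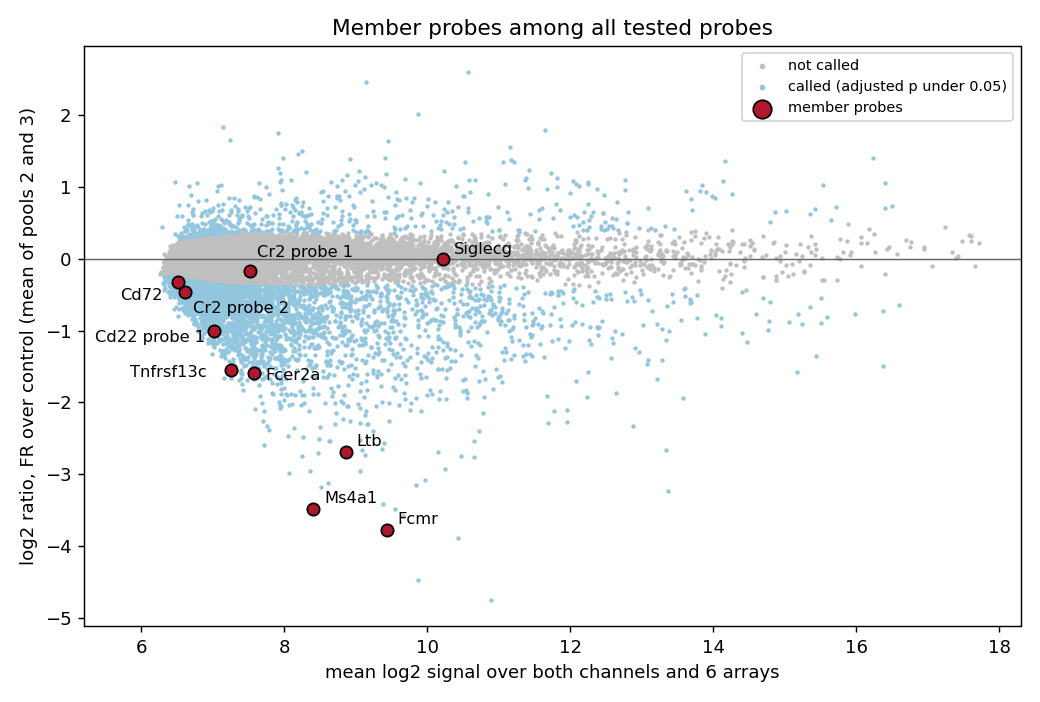
Log2 ratio of FR over control (mean of pools 2 and 3) against mean log2 signal for the 13270 tested probes, with the 10 tested member probes marked. Fcmr at -3.77 and Ms4a1 at -3.48 lie at the lower edge of the cloud, and Siglecg lies on the zero line.

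The tissue label held against its markers, since the erythroid genes Hba-a1, Alas2 and Slc4a1 were above background in both diets on all 4 arrays. B cell markers outside the member list moved with the members. Of 7 such markers, 6 were tested, 5 fell and none rose, with a median log2 ratio of -2.07. The log2 ratio was -4.48 ± 0.27 (SD, n = 2) for the receptor component Cd79b, -2.47 for the transcription coactivator Pou2af1, -2.32 for the adaptor Blnk and -1.82 for Bank1. Cd79a, the partner of Cd79b in the receptor, had a ratio of -0.14 and did not pass (limma adjusted p = 0.556), and Pax5 was too dim to be tested. The summed signal of the 7 markers, with Pax5 and the offset included, was 1620 to 1655 in FR blood and 6713 to 10028 in control blood of pools 2 and 3. Cd79b alone gave 217 to 253 of it in FR blood and 4221 to 6442 in control blood, so the difference of the sums rests largely on 1 gene.

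Several markers of other leukocytes fell as well, and their part in the members' ratios was not tested. All 4 tested monocyte markers fell. Each summed signal here is over every listed marker on the array, tested or not, with the offset included. For monocytes the sum was 3969 to 4924 in FR blood and 30221 to 45073 in control blood. Lyz2 alone gave 2947 to 3999 of it in FR blood and 26745 to 39048 in control blood. Among T cell markers 3 of 5 tested fell, with a summed signal of 2415 to 2491 in FR blood and 3611 to 3727 in control blood. Cd3e, which was not called at a log2 ratio of -0.05, gave 1467 to 1640 of it in FR blood and 1420 to 1822 in control blood. The 4 tested NK cell markers all fell, with sums of 476 to 505 in FR blood and 851 to 1078 in control blood. No tested marker of plasma cells (2 genes) or dendritic cells (3 genes) was called by limma in either direction, and at an unadjusted p under 0.05 the dendritic list had 1 gene lower and 1 higher and the plasma cell list none. Their summed signals were 930 to 943 in FR blood and 971 to 1009 in control blood for plasma cells, and 17149 to 19980 in FR blood and 18212 to 20701 in control blood for dendritic cells. Nearly all of the dendritic sum came from 1 gene, Zbtb46, at 16500 to 19371 in FR blood and 17549 to 19992 in control blood. Of the plasma cell markers, Prdm1 was above background on none of the 4 arrays in either diet. Neutrophil markers fell in 3 of 5 genes, with sums of 9427 to 9893 in FR blood and 10722 to 21417 in control blood, but none of the 3 was called with the prior of 3 pools. Platelet markers fell in 4 of 5 genes, with sums of 34128 to 35390 in FR blood and 81951 to 83022 in control blood, and erythroid markers in 1 of 4, with sums of 344044 to 379623 in FR blood and 322636 to 376538 in control blood. With the prior of 3 pools those counts were 5 for B cells, 3 for T cells, 3 for NK cells, 4 for monocytes, 3 for platelets and 1 for erythroid cells.

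**Figure D3:**
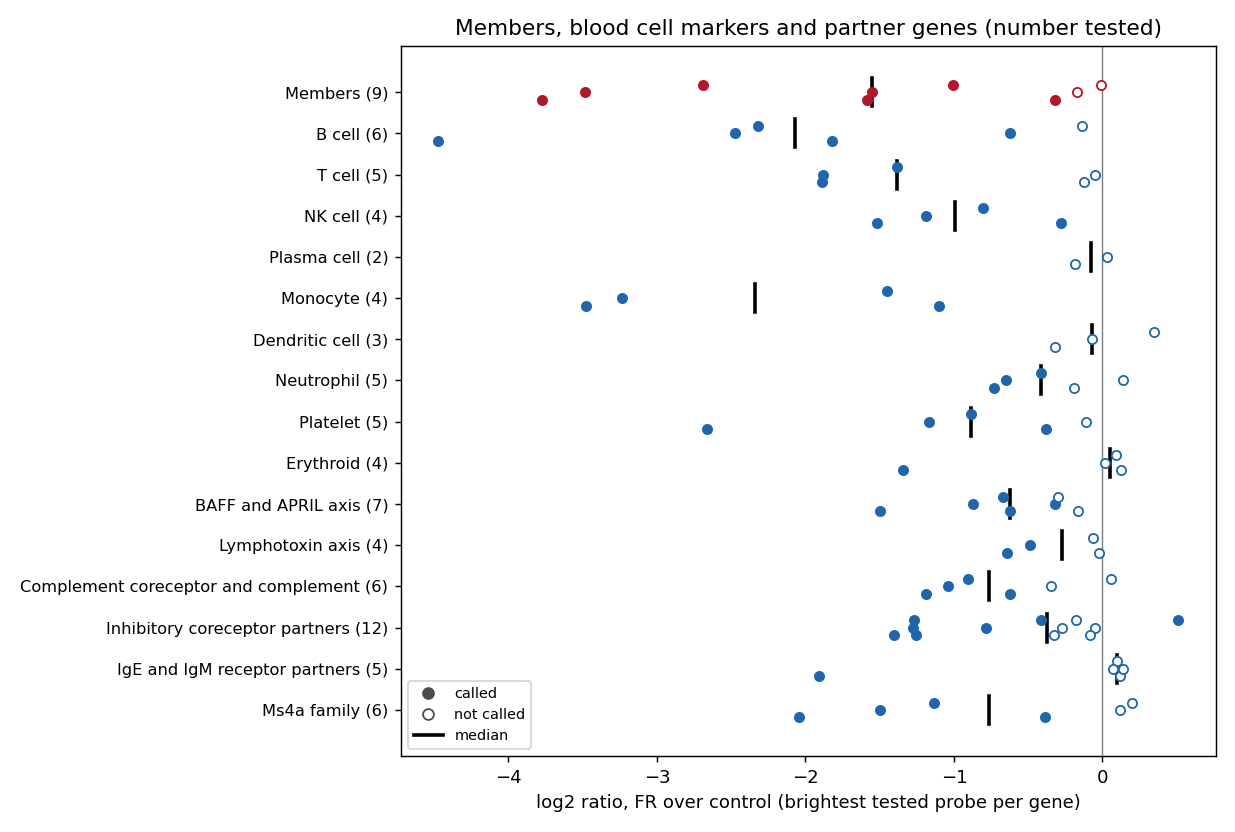
Log2 ratio of FR over control for the 9 members, the blood cell markers and the partner genes, 1 point per gene by its brightest tested probe, filled where called (limma adjusted p under 0.05), with a line at each list's median. The members' median of -1.55 lies between that of the B cell markers (-2.07) and that of the T cell markers (-1.39), and the monocyte markers have the lowest median (-2.34).

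Partner genes of the members were described by pathway, with the share of all named genes called lower, 28.1%, as the background. Of 11 genes of the BAFF and APRIL pathway, 7 were tested and 5 fell, with a median of -0.62 beside -0.04 over all named genes. The ubiquitin ligases Birc2 and Birc3 were at -1.50 ± 0.02 and -0.87 ± 0.45 on the log2 scale (SD, n = 2), and the adaptor Traf3 and the kinase Map3k14, which act below the BAFF receptor, at -0.67 ± 0.40 and -0.62 ± 0.30. The ligand Tnfsf13b (BAFF) and the receptors Tnfrsf13b and Tnfrsf17 were too dim to be tested. Of 7 genes of the lymphotoxin pathway, 4 were tested and 2 fell, the receptor Tnfrsf1a at -0.64 ± 0.35 and the ligand Tnfsf14 at -0.49 ± 0.20, and with the prior of 3 pools 1 of them was called. Lta, the partner subunit of Ltb, had a log2 ratio of -0.06 ± 0.09 (SD, n = 2; limma adjusted p = 0.719), with signals of 93.4 and 84.5 in FR blood and 102 and 84.2 in control blood, and FR was above background on 1 of 4 arrays.

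Among 8 genes of the complement coreceptor and of complement, 6 were tested and 4 fell. Among them were the complement component C3 at -1.19 ± 0.66, Cd81 at -1.04 ± 0.04 and the complement regulator Cd55 at -0.91 ± 0.26 on the log2 scale (SD, n = 2). Cd81 is part of the coreceptor that holds the product of Cr2. Of 12 partners of the inhibitory receptors, all were tested, 6 fell and 1 rose. The largest falls were those of the paired receptor Pirb at -1.40 ± 0.93, the kinase Lyn at -1.27 ± 0.04, the adaptor Grb2 at -1.27 ± 0.25 and the lipid phosphatase Inpp5d at -1.26 ± 0.19. Lyn phosphorylates the inhibitory motifs of Cd22. Ptpn6, the phosphatase SHP-1 that these motifs recruit, had a ratio of -0.27 ± 0.03 that did not pass (limma adjusted p = 0.182). The 1 gene that rose, singled out here after its value was seen, was Sema4d, the ligand of Cd72, at 0.51 ± 0.24, and its adjusted p with the prior of 3 pools was 0.0785.

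Of 8 partners of the IgE and IgM receptors, 5 were tested and 1 fell, the signalling chain Fcer1g at -1.91 ± 0.27 (SD, n = 2), which myeloid cells share, and the list's median was 0.10. Of 9 relatives of Ms4a1 in the Ms4a family, 6 were tested and 4 fell. Ms4a4b was at -2.04 ± 0.41, Ms4a6b at -1.50 ± 0.50, Ms4a4c at -1.14 ± 0.47 and Ms4a6c at -0.39 ± 0.19, while Ms4a2 and Ms4a7 did not pass. Ms4a4b is known from T cells and Ms4a6b from T cells and macrophages. With the prior of 3 pools the partner genes called lower were 4 for BAFF and APRIL, 4 for complement, 5 for the inhibitory receptors, 1 for the IgE and IgM receptors and 3 for the Ms4a family.

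**Figure D4:**
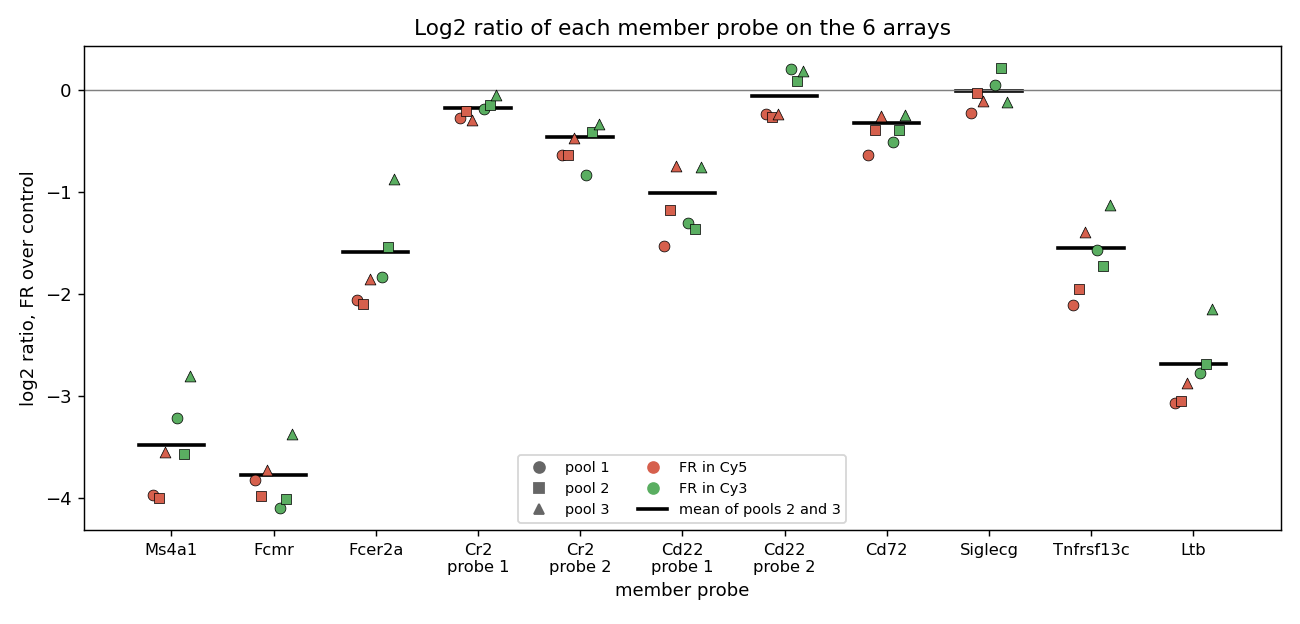
Log2 ratio of FR over control for each member probe on each of the 6 arrays, with symbols for pools, colours for the dye of the FR sample and a bar at the mean of pools 2 and 3. All tested member probes but Siglecg are below 0 on all 6 arrays, including Cr2 probe 1, which was not called. Siglecg scatters about 0, and the untested Cd22 probe 2 splits by dye.

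The ratios of the members differed between pools in a common direction. All 8 probes that fell had a lower ratio in pool 2 than in pool 3, with a median difference of -0.45 on the log2 scale, and so did 89.1% of all probes called lower, with a median of -0.30. The signals of each diet, offset included, were also compared between pools. For Ms4a1 the signal in pool 2 was 1.01 times that in pool 3 in FR blood and 1.54 times in control blood, and for Fcer2a it was 1.32 times in FR blood and 1.81 times in control blood. Over the 8 probes that fell, this factor was 1.01 to 1.32 in FR blood and 1.23 to 1.81 in control blood. The medians over all probes called lower were 1.07 in FR blood and 1.30 in control blood, and over all tested probes 1.01 and 1.08. These factors compare arrays after normalisation of the channels to a common distribution of average signal, and each rests on 1 pool of 4 animals per diet. The offset draws the factor of a dim FR signal towards 1, and with processed signals, not normalised between arrays, the factor for Ms4a1 was 2.17 in FR blood and 1.86 in control blood, and the FR factor was the larger also for Cr2 probe 2 and Ltb, so which diet differed more between pools was not settled.

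The dye also moved with the ratios. The fall was larger with FR in Cy5 in all 3 pools for 5 of the 8 probes, where this held for 26.4% of all probes called lower. For Ms4a1 the mean of 3 arrays was -3.84 with FR in Cy5 and -3.20 with FR in Cy3, for Fcer2a -2.003 and -1.41, and for Ltb -2.99 and -2.54. For Fcmr both dyes gave nearly the same mean, -3.84 and -3.83, but the pools differed in sign. The ratio with FR in Cy5 minus that with FR in Cy3 was 0.28 in pool 1, 0.03 in pool 2 and -0.36 in pool 3. The sign was negative with either dye for all 8 probes that fell, and the mean over both dyes was used throughout.

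The size of the falls depended on the treatment of background. The offset that keeps dim signals from giving extreme ratios also draws them towards 0. With Agilent's own processed signals, which have no such offset and were centred on the median in place of loess, so that both choices changed, the log2 ratio was -5.45 for Ms4a1, -4.68 for Fcmr, -3.87 for Tnfrsf13c, -3.52 for Ltb, -2.99 for Cd22 probe 1, -2.75 for Fcer2a, -1.998 for Cd72 and -1.94 for Cr2 probe 2. Over the 8 probes the median was -3.25 with processed signals and -1.57 with the offset, and over all probes called lower it was -1.44 and -0.65. FR was above background on all 4 arrays for 2 of the 8 (Fcmr and Ltb), against 45.3% of all probes called lower. Siglecg stayed near 0 at -0.06, and Cr2 probe 1 was at -0.10. With no background subtraction and loess kept, the ratios lay nearer to 0 for the 8 probes, such as -3.13 for Ms4a1 and -1.31 for Tnfrsf13c.

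**Figure D5:**
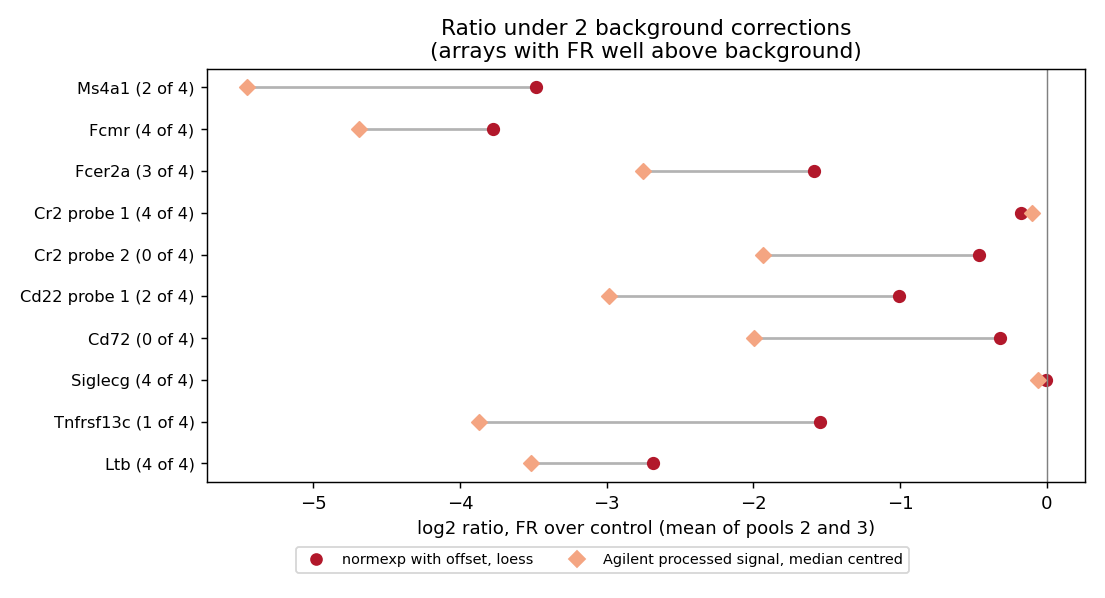
Log2 ratio of FR over control (mean of pools 2 and 3) of the 10 tested member probes with the offset background correction and loess (circles) and with Agilent's processed signals centred on the median (diamonds), with the number of FR arrays above background in brackets. The 8 probes that fell are lower with processed signals, and Cr2 probe 1 and Siglecg stay near 0 with both.

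For each member, the genes whose log2 ratios lay nearest over the 6 arrays were found by Euclidean distance among 7897 named genes. Nearest to Ms4a1 were Ly6d (0.83), Cd74, the invariant chain of MHC class II (1.00), and lysozyme Lyz2 (1.04). Nearest to Fcmr were Cd74 (0.91), cathepsin S, Ctss (1.18), and Ly6d (1.52). Nearest to Ltb were Mcl1 (0.46), the leukocyte phosphatase Ptprc (0.48) and Coro1a (0.71). For Tnfrsf13c they were Pomp (0.17), Foxo1 (0.26) and Nelfb (0.27), and for Fcer2a Rnaset2b, Dgka and Irf7 (0.41 to 0.44). Glud1, Mrfap1 and Cdc5l stood nearest to Cd22 (0.26 to 0.29), and Utrn, Cdkn1b and Cnga2 to Cd72 (0.09 to 0.14). Ly6g5b, Rcbtb2 and Prrg2 stood nearest to Cr2 (0.12 to 0.14), and Trip6, Zfp874a and Tfap2a to Siglecg (0.10 to 0.12). The distance grows with the size of the ratio, and genes near 0 have many close neighbours, so distances of different members are not on 1 footing.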

How the data were processed

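The arrays were 6 two-colour Agilent arrays of pooled whole blood RNA, extracted with a column kit and labelled with a linear amplification kit, per the labels' protocols. The deposited scanner files hold spot intensity (median signal, background median and processed signal of both dyes), which the submitters' processing notes trace to Agilent Feature Extraction 11.0.1.1. A deposited table of the whole series gives log10 values, which equalled log10 of red over green processed signal on every spot compared, with no centring. All columns of per-sample values were mapped.

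Median signals were background-corrected (limma 3.58.1 in R 4.3.3, normexp, offset 50), loess-normalised within arrays with control spots at weight 0, freed of outlier spots, averaged over spots of a probe and turned to log2 FR over control. Each pool is the mean of its 2 dye-swapped arrays. The design had named each channel's signal without saying which, and the files hold medians. Channel signals came from Aquantile after loess. Bounds set dim signals to at least the lowest signal well above background. No spot was saturated, between 20.4% and 55.6% of spots were well above background in FR and 37.2% to 62.1% in control, and the number of arrays limits the precision.

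Of 41174 probes, 23374 were named through their accession in the RefSeq table of GRCm38.p6. The filter kept probes with either diet well above background (at least 0.5 of their spots) on each of the 4 arrays of pools 2 and 3, which left 13270. Pools 2 and 3 were tested against 0 with lmFit and eBayes with trend, two-sided, Benjamini-Hochberg adjusted over all of them; the prior degrees of freedom were infinite, and 5.40 with 3 pools. Taking the ratio within an array makes the pool a block, by construction and not because animals are shared. Pools 2 and 3 shared 1 slide that carried both diets. The test was tried on simulated data. Named genes were all members, up to 4 called genes per partner list by size of ratio, and the 3 nearest genes per member; some marker and partner genes that enter the counts are not reported here by name. The members and lists were chosen with earlier results of these data known. The alternatives covered background, centring, filter, probe choice, variance model, pairing, pools, slide and dye.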

Additional observations from a re-analysis of the deposited data

Results flagged for a closer look

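Cd22 probe 2, which was too dim to be tested, had a ratio whose sign differed between the dyes on every array. Its log2 ratio of FR over control averaged -0.24 on the 3 arrays with FR in Cy5 and 0.16 on the 3 arrays with FR in Cy3, a difference of -0.40. Every array of the first kind was below 0 and every array of the second above 0. The difference was not tested. Arrays of 1 orientation came in groups of 3, in which no search for outlying arrays was made.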

How the results depend on the processing

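Each result was recomputed under 17 alternatives, which are not independent checks. The deposited series values, centred on the median, gave the same results as Agilent's processed signals. The alternatives that bring in pool 1 use the animals of pools 2 and 3 again. Ms4a1, Fcmr, Fcer2a, Cd22 probe 1, Tnfrsf13c and Ltb kept their direction and their call in each alternative that tested them, with Ms4a1 between -5.45 and -3.13, Fcmr between -4.68 and -3.55 and Ltb between -3.52 and -2.42 on the log2 scale. Requiring both diets above background left 4 member probes, of which 2 (Fcmr and Ltb) were called lower, and 1537 of 7880 probes of the whole table (19.5%). With the prior taken from 3 pools, 2127 probes of the whole table were called lower. FR and control are paired on an array, and with no replicate block 1257 probes and 6 member probes were called lower, with Cd72 (limma adjusted p = 0.189) and Cr2 probe 2 (adjusted p = 0.0890) losing their calls. With pool 1 in the place of pool 2 or of pool 3, 2900 to 5022 probes and 7 to 8 member probes were called lower, and Cd72 lost its call without replicate 2 (adjusted p = 0.0592). Cd72 lost it in 6 alternatives in all, the others being no background subtraction, no trend, the prior of 3 pools and FR in Cy3 alone, and Cr2 probe 2 lost it also with FR in Cy3 alone. Median centring moved the median of all tested probes to -0.20, and Cr2 probe 1 was then called lower at -0.39 (limma adjusted p = 0.0240). Siglecg lay between -0.20 and 0.05 and was never called. The count of all probes called higher, 523 in the main setting, was 238 with median centring, 224 with the prior of 3 pools, 146 with no replicate block, 1068 with all 3 pools, 1997 without replicate 3, 988 with the slide as a block and 1160 with FR in Cy5 alone. No member probe was called higher in any alternative. Of 1263 values of markers and partners under the alternatives, 46 lost a call, 42 gained one and none that had been called changed sign. Losses and gains were not traced to a cause. The neutrophil markers had 0 genes lower with the prior of 3 pools, with no replicate block and without replicate 2, and Sema4d was not called higher with median centring, the prior of 3 pools or no replicate block. Dim FR signals limit the size of the falls.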
